A study of Homo sapiens with 11 samples.

Results

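H3K27ac, the acetylation of histone H3 at lysine 27, was profiled by chromatin immunoprecipitation and sequencing (ChIP-seq) in HK2 cells, and the 2 libraries of this mark were taken by their titles from the 11 samples of the series. HK2 is an immortalised cell line of human proximal tubule epithelium. The series charted functional elements of kidney tubule cells in order to connect disease variants with genes, and its other samples are 2 libraries each of H3K4me3, H3K27me3, RNA-seq and H3K27ac HiChIP and 1 of input DNA. All of them are wild-type HK2 cells of a single line, kept in DMEM-F12 with serum, antibiotics and a low share of DMSO, with no treatment group, so the cells were compared with nothing outside themselves. Both H3K27ac libraries were made with the antibody ab4729 of Abcam on formaldehyde-fixed cells. The labels do not say whether they came from separate cultures, so the spread between them may be technical. The peak lists hold 57761 peaks in replicate 1 and 38639 in replicate 2, of which 57687 and 38554 lie on the 24 chromosomes used here. Each list gives only the limits of a peak, so the height and significance of a peak cannot be read from it. Library read totals and enrichment, which the study gives outside these lists, were not used here.

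H3K27ac is placed by the acetyltransferases p300 and CBP, read by bromodomain proteins and removed by histone deacetylases. It is found on the nucleosomes that flank active promoters and active enhancers, on both sides of the stretch of open DNA where transcription factors bind. H3K4me3 marks promoters above all, and H3K27me3, which sits on the same lysine and so cannot be on the same histone tail at that position, marks genes silenced by Polycomb. Long runs of H3K27ac often lie at genes on which the identity of a cell depends.

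The following stretches, read from GRCh37 (the build called hg19 in the study), show the DNA under distal H3K27ac. Distal means that no transcription start site (TSS) of a protein-coding gene lies within 1 kb. For 19 of the 20 genes with most H3K27ac bases, the central 300 bp of the widest distal segment covered in both replicates were read. Of these 19 windows, 4 held the AP-1 motif TGACTCA, 2 the TEAD motif ACATTCC and 2 the RUNX motif TGTGGTT on either strand, and 7 held at least 1 of them. The first 5 of these 7 in the order of H3K27ac bases are shown, on the plus strand, with the matches in capitals. Each lies within the body of the gene named. They are headed as introns, but overlap of single windows with exons was not tested.
RAD51B intron, chr14:68608693-68608992: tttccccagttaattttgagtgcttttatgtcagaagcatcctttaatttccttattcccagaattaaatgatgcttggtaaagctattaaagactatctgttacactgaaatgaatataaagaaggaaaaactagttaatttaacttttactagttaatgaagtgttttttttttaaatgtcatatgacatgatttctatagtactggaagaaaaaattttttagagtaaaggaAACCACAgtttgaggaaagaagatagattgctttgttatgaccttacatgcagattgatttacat
FOXP1 intron, chr3:71553583-71553882: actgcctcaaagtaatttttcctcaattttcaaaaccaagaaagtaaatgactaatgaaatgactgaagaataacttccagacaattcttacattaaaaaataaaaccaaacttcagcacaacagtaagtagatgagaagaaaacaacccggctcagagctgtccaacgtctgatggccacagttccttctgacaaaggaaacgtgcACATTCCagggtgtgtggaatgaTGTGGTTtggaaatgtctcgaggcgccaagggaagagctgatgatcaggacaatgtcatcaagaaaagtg
SUSD1 intron, chr9:114809907-114810206: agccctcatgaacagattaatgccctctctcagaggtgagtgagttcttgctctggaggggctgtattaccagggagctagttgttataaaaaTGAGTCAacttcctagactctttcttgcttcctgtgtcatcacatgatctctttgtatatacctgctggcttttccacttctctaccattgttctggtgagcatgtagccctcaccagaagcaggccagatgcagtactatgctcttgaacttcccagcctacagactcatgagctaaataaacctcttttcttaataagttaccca
GLIS3 intron, chr9:4137840-4138139: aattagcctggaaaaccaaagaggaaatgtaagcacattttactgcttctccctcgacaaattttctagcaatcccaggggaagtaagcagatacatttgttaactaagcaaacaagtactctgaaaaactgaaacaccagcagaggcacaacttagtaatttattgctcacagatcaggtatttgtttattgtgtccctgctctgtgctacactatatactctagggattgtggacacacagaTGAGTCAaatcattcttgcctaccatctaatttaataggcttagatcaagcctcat
DLGAP1 intron, chr18:3624117-3624416: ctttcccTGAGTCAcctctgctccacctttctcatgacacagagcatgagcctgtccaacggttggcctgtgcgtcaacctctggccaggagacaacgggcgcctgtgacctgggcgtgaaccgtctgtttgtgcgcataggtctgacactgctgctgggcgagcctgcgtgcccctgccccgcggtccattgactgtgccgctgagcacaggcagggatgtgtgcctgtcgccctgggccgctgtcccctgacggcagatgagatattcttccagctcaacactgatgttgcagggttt
The RAD51B stretch holds a RUNX match, the FOXP1 stretch a TEAD and a RUNX match, and the other 3 an AP-1 match each. These stretches were picked for their matches and only illustrate them. Over the central 300 bp of all distal shared segments, 10.4% held the AP-1 motif, 5.07% TEAD and 5.85% RUNX. Among all 300-bp tiles of the genome the shares were 4.58%, 4.33% and 5.76%, so RUNX and TEAD in shared segments lay near the genome share. In the central 300 bp of distal replicate 1 peaks they were higher, 6.62% for TEAD and 7.21% for RUNX.

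Promoters were read from 250 bp before to 50 bp after the annotated gene start. Those of ITGA3, an integrin subunit that binds laminin, FOXP1, a forkhead transcription factor, and CXCL8, a chemokine that attracts neutrophils, are shown in the sense of transcription. Capitals mark SP/KLF (GGGCGGG) and ETS (CCGGAAG) in ITGA3, CREB/ATF (TGACGTC) in FOXP1 and AP-1 in CXCL8, on either strand. Each promoter is marked only for the motifs named for it, so these stretches illustrate matches and allow no comparison with the distal windows.
ITGA3 promoter, chr17:48133082-48133381, plus strand: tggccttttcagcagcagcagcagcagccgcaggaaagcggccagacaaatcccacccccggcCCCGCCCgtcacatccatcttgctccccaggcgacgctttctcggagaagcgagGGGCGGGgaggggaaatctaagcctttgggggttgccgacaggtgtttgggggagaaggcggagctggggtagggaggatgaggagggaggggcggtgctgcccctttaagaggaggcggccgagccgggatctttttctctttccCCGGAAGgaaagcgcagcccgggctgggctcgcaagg
FOXP1 promoter, chr3:71633080-71633379, minus strand: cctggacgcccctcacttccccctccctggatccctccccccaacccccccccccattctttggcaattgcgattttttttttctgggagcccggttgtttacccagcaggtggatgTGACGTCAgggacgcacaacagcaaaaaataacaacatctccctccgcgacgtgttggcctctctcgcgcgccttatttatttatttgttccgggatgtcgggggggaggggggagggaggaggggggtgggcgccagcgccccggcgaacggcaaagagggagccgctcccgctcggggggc
CXCL8 promoter, chr4:74605986-74606285, plus strand: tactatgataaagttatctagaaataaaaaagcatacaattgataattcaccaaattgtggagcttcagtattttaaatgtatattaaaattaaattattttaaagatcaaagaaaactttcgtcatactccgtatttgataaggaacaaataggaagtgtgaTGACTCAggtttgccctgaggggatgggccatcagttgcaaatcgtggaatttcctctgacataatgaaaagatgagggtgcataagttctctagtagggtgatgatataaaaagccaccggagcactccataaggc
ITGA3 held 2 SP/KLF matches and 1 ETS match, and the capitals in FOXP1 are a palindrome that matches on both strands. Among all 20162 protein-coding promoters of this length, 38.7% held the SP/KLF motif, 11.8% the ETS motif, 4.05% the CREB/ATF motif and 3.97% the AP-1 motif. All 3 windows were covered completely by replicate 1 peaks. Replicate 2 peaks covered 1.0% of the ITGA3 window, 73.0% of the CXCL8 window and all of the FOXP1 window. A gap in replicate 2 like that at the ITGA3 start recurred over many expressed genes, as described with the profile around gene starts.

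The replicates differed mainly in how much they covered. Replicate 1 peaks covered 107.3 Mb, or 3.47% of the genome, and replicate 2 peaks 38.9 Mb, or 1.26%, a ratio of 2.76. Nearly all of the smaller list lay within the larger one: 97.4% of replicate 2 peaks overlapped a replicate 1 peak by at least 1 bp, and 97.6% of replicate 2 bases were replicate 1 bases. In the other direction, 44.1% of replicate 1 peaks overlapped replicate 2 and 35.4% of their bases were shared. The bases covered in both replicates came to 38.0 Mb in 37609 segments, called shared segments here, and the bases in either to 108.2 Mb. Because shared bases are 97.6% of replicate 2, values for shared bases follow replicate 2 closely and are no further measurement.

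Replicate 1 peaks were also wider. The median width was 1357 bp in replicate 1, 657 bp in replicate 2 and 660 bp for shared segments, and peaks of at least 4 kb numbered 4942 and 825. These wide peaks held 31.7% of the covered bases in replicate 1 and 12.1% in replicate 2. Peaks of at least 10 kb numbered 588 and 34. Width and overlap went together: 3.02% of the 11071 replicate 1 peaks under 0.5 kb met a replicate 2 peak, against 49.2% of those of 1 to 2 kb, 80.9% of those of 2 to 4 kb and 99.5% of those of at least 10 kb. A single replicate 1 peak often held several replicate 2 peaks. This was so for 8741 replicate 1 peaks (15.2%), with up to 19 replicate 2 peaks in 1 of them. The part of depth, enrichment and peak calling in this difference was not tested.

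**Figure D1:**
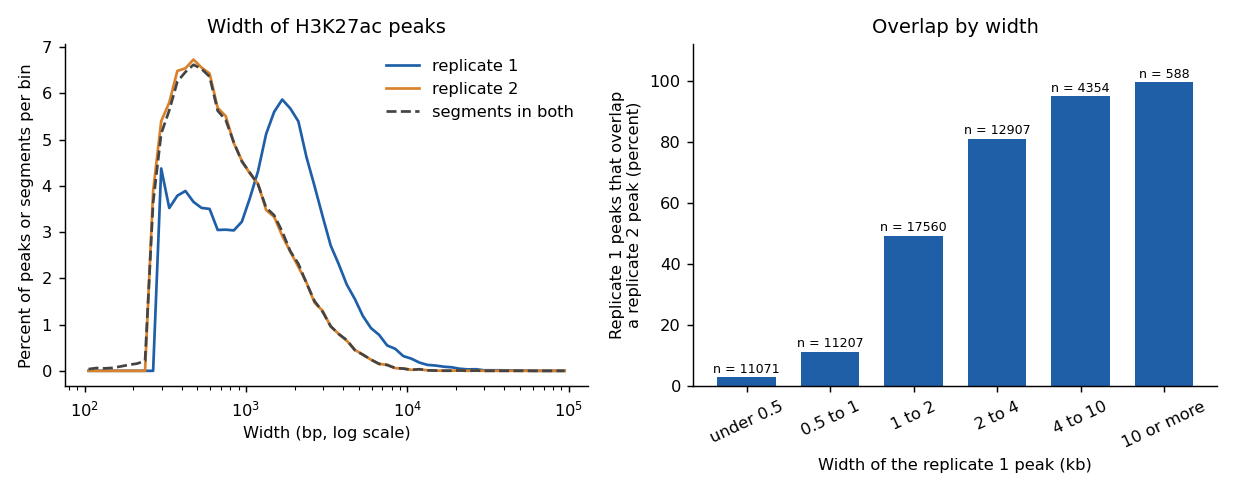
Left, the percent of H3K27ac peaks (replicate 1, blue; replicate 2, orange) or shared segments (dashed) in each width bin, with width in bp on a log scale; right, the percent of replicate 1 peaks that overlap a replicate 2 peak, by width class in kb, with the number of peaks above each bar. Replicate 1 has a second, wide maximum between 1 and 3 kb that replicate 2 lacks, and overlap climbs from 3.02% to 99.5% with width.

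Most H3K27ac peaks were distal, in both replicates. Promoter peaks, which overlap the 1 kb on either side of a TSS, made up 28.1% of peaks in replicate 1 (95% Wilson interval 27.8 to 28.5%), 36.3% in replicate 2 (35.8 to 36.8%) and 37.1% of shared segments. These intervals cover counting error only and are far narrower than the gap between the replicates. By bases the replicates were closer, with 36.7% and 37.9% of covered bases in promoter peaks. Promoter peaks were wider than distal peaks in each replicate, with medians of 1853 against 1119 bp in replicate 1 and 754 against 612 bp in replicate 2. Promoter peaks of replicate 1 also recurred more often in replicate 2, 68.7% of them against 34.4% of distal peaks. Among replicate 1 peaks with no counterpart in replicate 2, 15.7% were promoter peaks, and their median width was 709 bp against 2269 bp for those with a counterpart.

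Away from promoters, shared segments spread over all distances. Of the 37609, 11.3% had their near edge 1 to 5 kb from the closest TSS of a protein-coding gene, 18.8% 5 to 20 kb, 13.6% 20 to 50 kb, 13.3% 50 to 200 kb and 5.86% over 200 kb. The median width of distal segments changed little with distance, between 570 bp at 1 to 5 kb and 637 bp at 20 to 50 kb. Distal segments that overlap the body of a protein-coding gene were 32.8% of all shared segments, mostly intronic (28.5%), and intergenic segments were 30.1%. Chromosomes 19 and 17 carried the most shared H3K27ac per length, 26.5 and 25.6 kb per Mb, and are also the most gene-dense, with 25.03 and 14.64 protein-coding genes per Mb. Chromosome 13, with 2.80 genes per Mb, had 6.05 kb per Mb.

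Beside the other marks, the mean promoter share of H3K27ac was intermediate, but 2 libraries a mark cannot establish a difference. The shares were 51.7 and 27.1% for H3K4me3 and 7.96 and 10.2% for H3K27me3. Both H3K27ac values lay above both H3K27me3 values, with a mean difference of 23.2 percentage points (exact permutation test over 4 samples, two-sided, p = 0.333, the smallest this design allows). The values of H3K27ac and H3K4me3 overlapped, with a mean difference of -7.21 points (exact permutation test, two-sided, p = 1.0). Mean log2 median width differed by 0.39 from H3K4me3 and by 0.25 from H3K27me3, both within the spread of the replicates (exact permutation tests, two-sided, p = 0.667). With the replicate block, that is, paired by replicate number, the differences in promoter share were the same, 23.2 and -7.21 points, with p = 0.5 and 1.0 by the exact permutation test.

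H3K27ac shared many promoters with H3K4me3 and almost no region with H3K27me3. Of promoter segments shared by both H3K27ac replicates, 80.5% overlapped H3K4me3 present in both of its replicates, whereas 6.79% of distal segments did. The distal share was 28.5% with H3K4me3 replicate 1 alone and 7.61% with replicate 2 alone, so how many distal segments count as free of H3K4me3 depended on that list. Only 36 of the 37609 shared segments (0.0957%) overlapped H3K27me3 present in both replicates. The replicates of H3K27ac taken singly gave 0.343% and 0.117%. These are peaks of a cell population, and whether both marks sat in the same cells was not tested.

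Around the starts of expressed genes, H3K27ac peaks covered the downstream side more often in both replicates, and only replicate 2 dipped just upstream of the start. FPKM is fragments mapped to a transcript, scaled to its length and to the depth of the library, here summed over the transcripts of a gene. An FPKM of at least 1 in both RNA-seq libraries was found for 11549 protein-coding genes, 58.8% of the 19645 with a value. These genes were aligned at the annotated gene start. In replicate 1, coverage was highest at 350 bp downstream, where 87.1% of these genes were covered, and fell to 21.7% at 2 kb downstream and 10.0% at 2 kb upstream. Replicate 2 showed a pair of maxima, 39.6% of genes at 350 bp upstream and 63.6% at 300 bp downstream, and between them a low of 33.1% at 100 bp upstream. Replicate 1 covered 82.8% at 50 bp upstream and had no such dip. H3K4me3 present in both its replicates reached 84.3% at 300 bp downstream. Sorting the genes one by one, the position 150 bp upstream was covered in 3919 genes in replicate 2 (33.9%). A further 2052 genes (17.8%) had that position free and a peak within 1 kb on each side, 2399 (20.8%) only on the downstream side and 340 (2.94%) only on the upstream side, while 2839 (24.6%) had none. In replicate 1 the corresponding counts were 9103, 717, 576, 58 and 1095 genes.

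**Figure D2:**
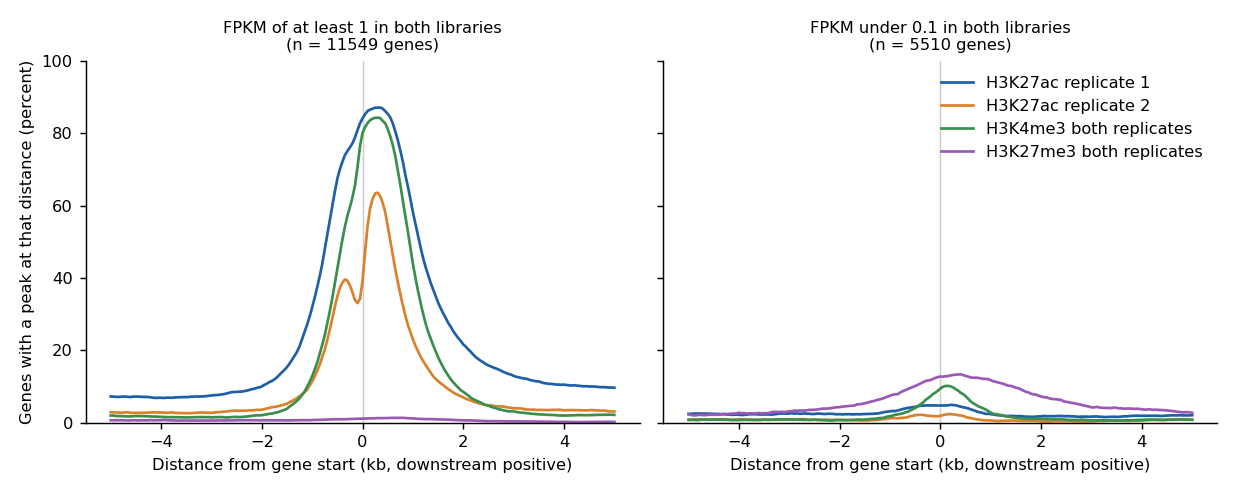
Percent of genes with a peak at each distance from the annotated gene start, in kb with downstream positive, for 11549 genes with FPKM of at least 1 in both libraries (left) and 5510 genes with FPKM under 0.1 in both (right). H3K27ac replicate 2 (orange) dips to 33.1% just upstream of expressed starts between maxima of 39.6% and 63.6%, replicate 1 (blue) does not dip, and at genes of low FPKM H3K27me3 (purple) lies above both H3K27ac lines near the start.

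The AP-1 motif was most frequent near the centre of distal replicate 1 peaks of 1 to 4 kb. Replicate 2 peaks and shared segments were not profiled in this way. AP-1 is the family of FOS and JUN factors that respond to growth and stress signals. In 10151 distal replicate 1 peaks of 1 to 4 kb that overlap replicate 2, TGACTCA occurred 1066 times per Mb within 100 bp of the peak centre and 173.8 times per Mb at 1 to 1.5 kb from it, a ratio of 6.13. The rate over the whole genome was 160.8 per Mb. In 9180 peaks of the same width with no replicate 2 peak the rates were 978.8 and 152.0 per Mb, a ratio of 6.44, so peaks called in replicate 1 alone carried the motif at their centres at a like rate. Replicate 2 covered 59.6% of the overlapping peaks at their centre, a little less than the 62.6% at 350 bp from it. Of the 13 motifs searched, AP-1 had the highest ratio in both groups of peaks. In the order of the overlapping peaks, the others were SP/KLF with 3.10 and 2.23, CREB/ATF with 2.23 and 1.77, TEAD with 2.11 and 2.40, NF-kB (GGGANTTTC) with 2.04 and 2.11, HNF1 (GTTAATNAT) with 1.87 and 2.83, ETS with 1.87 and 1.496, and RUNX with 1.67 and 1.72. In the peaks without replicate 2 the order differed, with HNF1 and TEAD ahead of SP/KLF. NF-Y (CCAATCA), FOX (TGTTTAC), the glucocorticoid receptor motif (ACANNNTGT), HNF4 (CAAAGTCCA) and NRF1 (GCGCATGC) had ratios between 0.495 and 1.11. CREB/ATF and AP-1 share the letters TGAC and are read as separate motifs. A match is a run of letters and does not show that a factor was bound.

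**Figure D3:**
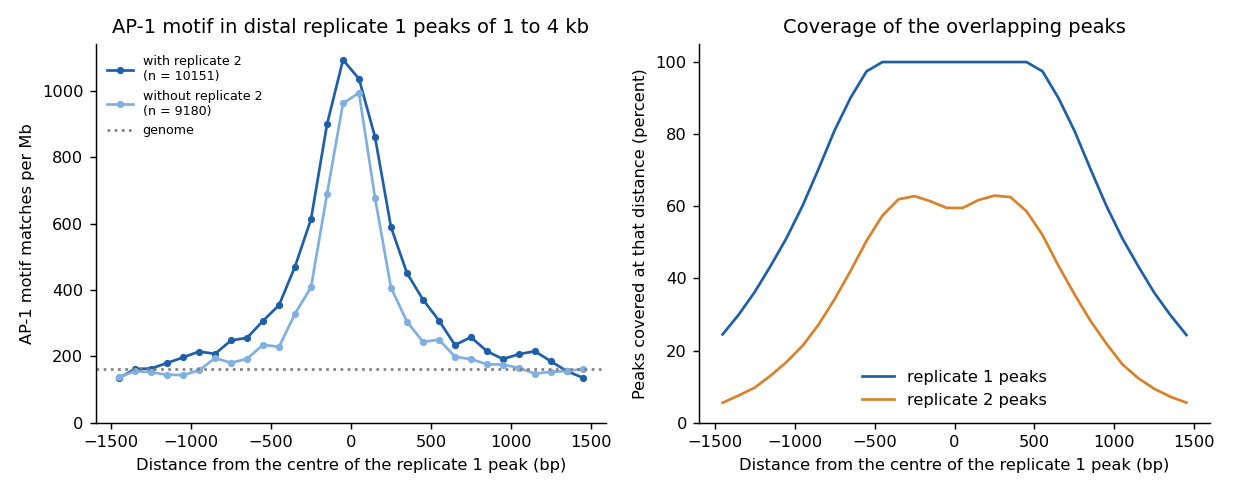
Left, AP-1 motif matches per Mb in 100-bp bins by distance in bp from the centre of distal replicate 1 peaks of 1 to 4 kb, with (dark, n = 10151) and without (light, n = 9180) a replicate 2 peak, and the genome rate as a dotted line; right, the percent of the overlapping peaks covered by replicate 1 and replicate 2 at each distance. Both motif curves rise from near the genome rate of 160.8 per Mb to about 1000 per Mb at the centre.

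Motif shares of whole windows differed between the sets of regions. In the central 300 bp, AP-1 was found in 21.8% of distal replicate 1 peaks that overlap replicate 2, in 15.1% of those that do not, and in 10.4% of distal shared segments. Of all 9528558 genome tiles of 300 bp without unknown bases, 4.58% held it. In shared distal segments of at least 4 kb (n = 538) the share was 12.3%. Promoter segments held AP-1 in 4.40%, close to the genome tiles, and SP/KLF in 30.2%, against 3.67% of distal segments and 1.53% of tiles. ETS was found in 8.19% of promoter segments and 1.40% of distal ones. Base composition moved with these shares: promoter windows had 61.6% G and C, distal windows 46.4% and genome tiles 40.9%, and its part in the shares was not tested.

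H3K27ac bases were counted over each gene body with 10 kb added on either side, called the gene window. Of 20162 protein-coding genes, 13867 (68.8%) had at least 1 base covered in both replicates. The median was 3056 bases in replicate 1, 1008 in replicate 2 and 1000 shared, and 4062 genes had none in either replicate. Windows overlap, hold 48.9% of the genome and took up 75.2% of the shared bases. Across genes the replicates ranked alike, with a Spearman rho of 0.90 over 20162 genes. Genes are not independent replicates, and neighbours share bases. Only 10 of the 20 genes with most bases in replicate 1 were among the 20 of replicate 2, and 358 of the highest 500.

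RAD51B, a gene of homologous recombination repair, carried the most H3K27ac bases in each replicate. Its window of 930440 bp on chromosome 14 (GRCh37, gene from 68286496 to 69196935) held 230344 bases in replicate 1, 121056 in replicate 2 and 120172 shared, and the shared bases were 12.9% of the window. In replicate 1 it was closer to the second gene, PLCB4, with 191705 bases. Its FPKM was only 3.17 and 2.99. BABAM2, a subunit of the BRCA1-A complex, followed with 69342 shared bases (117782 and 71140 in the replicates) and an FPKM of 23.2 and 22.8. MRPL33, a mitochondrial ribosomal protein gene next to it on chromosome 2, had 53942 (92047 and 54063), part of them in the overlap of the windows. FOXP1 had 48930 shared bases (136187 and 49235), and the overlapping readthrough gene ENSG00000285708, listed with 53152, counts largely the same bases.

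SMAD3, the transcription factor of TGF-beta signalling, had 51567 shared bases (93258 in replicate 1 and 51820 in replicate 2) with 34.1% of its window covered in both and an FPKM of 37.8 and 37.0. GLIS3, a Kruppel-like zinc finger factor known from cystic kidney disease, had 45866 (112024 and 49717), and ZMIZ1, a coregulator of the PIAS family, 42931 (88286 and 43080). AFF1, a scaffold of the super elongation complex, had 41026 (95315 and 42700). PRKCH, a protein kinase C, had 42968 (59325 and 46307), and TNIK, a kinase of Wnt signalling, 38899 (125621 and 39079). PTPN14, a phosphatase that restrains YAP, had 39972 (142592 and 40109) and an FPKM of 53.0 and 52.5. KCNMA1, the pore of the large-conductance potassium channel, had 51515 (125171 and 51515).

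The remaining genes of the first 20 were of mixed kinds. SUSD1, ERGIC1, VMP1 and HS3ST3A1 were compact, with 27.04 to 31.41% of their windows covered in both replicates. VMP1, an autophagy gene, had 41926 shared bases and an FPKM of 59.7 and 63.2, and HS3ST3A1, a heparan sulfate sulfotransferase, 38996 and 38.4 and 40.5. ASTN2, a long gene known from neurons, had 41007 over a window of 1011958 bp. Replicate 1 exceeded replicate 2 in all 20, least for PRKCH and most for PTPN14 in proportion. Outside these 20, replicate 1 put PLCB4, a phospholipase C, at 191705 bases, its second place, against 29844 in replicate 2, and the guanine exchange factor TRIO, the basement membrane collagen COL4A2, the polarity gene PARD3 and the cell cycle kinase CDK6 at 140449, 121055, 113166 and 107585. The largest rank differences within the 500 highest of either replicate were those of PIK3C3, with 29792 and 893 bases, and, in the opposite direction, ID1, an inhibitor of differentiation factors, with 11512 and 10894.

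**Figure D4:**
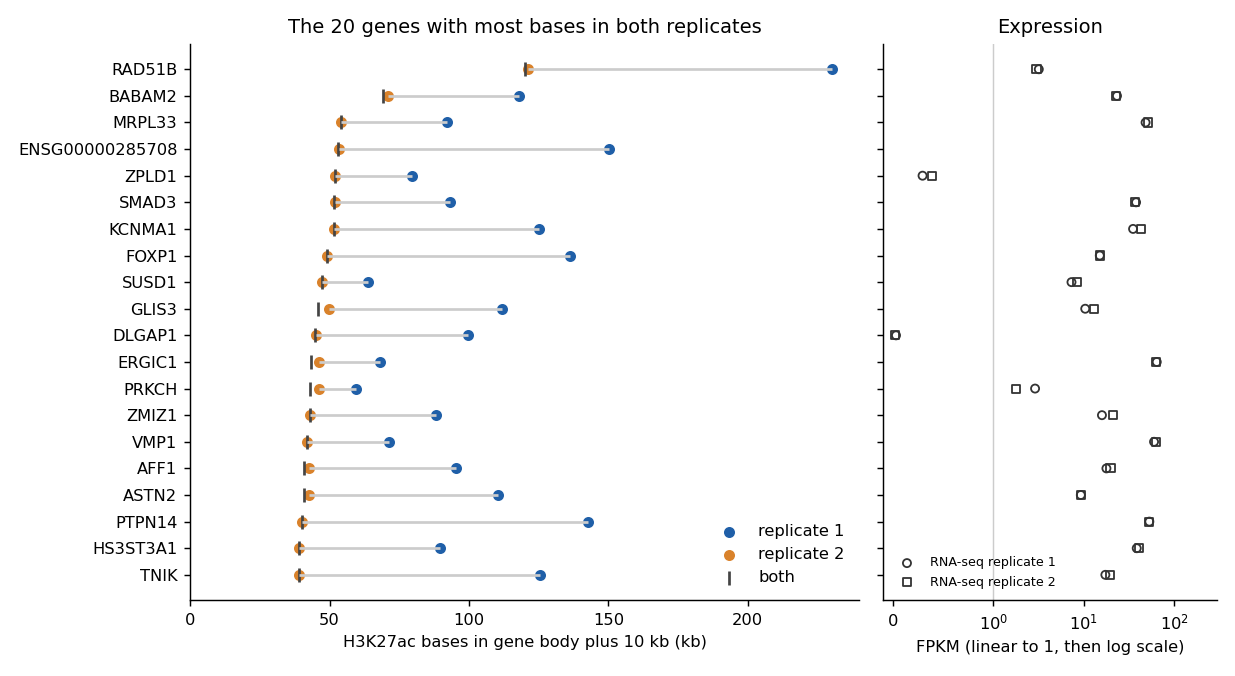
Left, H3K27ac bases in the gene body plus 10 kb, in kb, for the 20 protein-coding genes with most bases in both replicates (blue replicate 1, orange replicate 2, bar both); right, FPKM in the 2 RNA-seq libraries on an axis linear to 1 and then logarithmic. RAD51B leads in both replicates, replicate 1 exceeds replicate 2 for every gene shown, ZPLD1 and DLGAP1 lie below an FPKM of 1, and ENSG00000285708 has no FPKM.

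Some of the heaviest windows belonged to genes with hardly any RNA. Of the 500 genes with most shared bases, 34 (6.8%) had a mean FPKM under 1. Over all protein-coding genes with a value, 58.8% reached an FPKM of 1 in both libraries, so low FPKM was less frequent among the 500. ZPLD1 had 52109 shared bases at an FPKM of 0.294 and 0.388. Its closest expressed gene was NFKBIZ, an inducible regulator of NF-kB, 238221 bp away, with an FPKM of 83.7 and 108.8. DLGAP1, a postsynaptic scaffold gene, had 44934 at 0.030 and 0.020. It lies 36053 bp from TGIF1, a repressor of TGF-beta signalling (60.5 and 66.4). Within 1 kb of a DLGAP1 TSS, H3K27ac was found only in replicate 1, and both H3K4me3 and H3K27me3 were present. These marks need not lie at the same TSS. ENSG00000258989 overlaps PRKCH and lies 37548 bp from HIF1A, the hypoxia factor, whose FPKM was 96.5 and 100.6. SH3TC2 had 35759 at 0.721 and 1.01. LIPC, the hepatic lipase gene, had 30203 shared bases, no promoter peak in either replicate, and lies 18964 bp from the protease gene ADAM10 (9.75 and 12.1). Which gene these elements act on was not tested. In the opposite direction, none of the 100 genes of highest FPKM lacked shared bases, which 68.8% of all protein-coding genes had.

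Bases over a window favour long genes, and density gave other names. No gene was among the first 20 by both measures, and 136 were among the first 500 by both. LIF, a cytokine of the interleukin-6 family, was the densest: all of its window was covered in replicate 1 and 96.5% in replicate 2 and in both, at an FPKM of 36.4 and 32.7. The HOXA cluster of homeobox genes supplied 6 of the first 10, among them ENSG00000257184, which spans HOXA9 to HOXA10. HOXA7 was covered over 75.8% of its window in both, HOXA9 over 72.1%, HOXA4 over 60.5%, HOXA6 over 58.7% and HOXA10 over 58.6%. HOXA9 had an FPKM of 153.0 and 130.8, HOXA10 28.8 and 38.8, HOXA7 20.6 and 17.7, HOXA6 5.75 and 5.91 and HOXA4 1.90 and 2.22, while their windows overlap and share bases. JUNB, an AP-1 subunit, had 53.8% covered and an FPKM of 48.5 and 45.4.

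Joining shared segments over gaps up to a fixed length, set between the 5 and 25 kb tried as alternatives, gave 18451 clusters, 9576 of them a single segment. The 394 clusters with at least 10 kb covered were 2.14% of clusters and held 16.8% of the shared bases. As no signal was available, no cluster was ranked by signal or called a super-enhancer. The largest, at SUSD1 (chr9:114754235-114838716), had 60618 bases covered in 14 segments. The cluster around LIF and its neighbour OSM, a cytokine of the same family, was nearly as large (chr22:30577284-30659435), with 59360. SMAD3 followed with 51567 in 33 segments, PLCB4 with 48616, and the HOXA cluster from HOXA3 to HOXA11 with 47473. The others of the first 10 were at PRKCH with 45670, at RBMS1 with 43284, at UGCG, the glucosylceramide synthase gene, with 39747, at HS3ST3A1 with 38417 and at ERGIC1 with 36084.

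The widest single segments included some outside protein-coding genes, at 9480 to 65526 bp from the nearest one. A run of 27582 bp (chr3:98677542-98705123), 57002 bp from DCBLD2, a membrane receptor gene, was the widest. It lies in the long non-coding gene ENSG00000239462, which had 48271 shared bases at a mean FPKM of 0.373. A run of 27082 bp (chr3:101645393-101672474) lay 65526 bp from NFKBIZ, and another of 16109 bp overlapped NFKBIZ itself. A run of 14340 bp (chr4:74582416-74596755) lay 9480 bp from CXCL8. None of the 3 runs outside protein-coding genes overlapped H3K4me3 or H3K27me3 present in both replicates. The HOXA run of 20117 bp, from HOXA7 to HOXA10, overlapped H3K4me3 over 12764 bp. Among non-coding genes, PVT1, the long non-coding neighbour of MYC, held the most, with 171952 bases in replicate 1, 76195 in replicate 2 and 75560 shared.

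Median RNA levels were higher in classes of genes with denser H3K27ac, given here as a description over genes that are not independent replicates. With no shared base, the 6066 genes with RNA values had a median FPKM of 0 in both libraries, and 15.6% of them reached an FPKM of 1 in both. The medians in the 2 libraries were 4.79 and 5.07 for genes with up to 2% of the window covered, 8.98 and 9.04 for 2 to 5%, 12.2 and 11.9 for 5 to 10%, 14.6 and 14.3 for 10 to 20% and 19.6 and 18.1 above 20%. The share reaching 1 in both libraries rose from 72.5% to 84.1% over these covered classes. H3K27me3 at the promoter fell from 22.9% of genes without shared bases to 0.253% of those above 20%. The interquartile range above 20% was 4.28 to 48.4, so single genes could not be placed by density. By replicate 1 alone, 2.41% of the 3938 genes without bases reached an FPKM of 1. Part of the genes with RNA and no shared base thus had replicate 1 bases.

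Medians differed more between genes with and without a promoter peak than along classes of distal bases. With a promoter peak in both replicates and no distal segment, 6514 genes had median FPKM of 10.5 and 10.7 in the 2 libraries. With over 10 kb of distal segments besides, 227 genes had 16.6 and 16.1. Without a promoter peak, medians were 0 and 0 for 7079 genes with no distal segment, 0.376 and 0.348 for 489 genes with 2 to 10 kb, and 1.32 and 1.13 for the 21 with over 10 kb. Median window lengths rose along these classes, from 45656 to 239480 bp with a promoter peak, so length and distal bases moved together.

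A promoter peak was found in 13509 genes in replicate 1 (67.0% of 20162), 10997 in replicate 2 (54.5%) and 10987 in both (54.5%), and 18 gene lists were read against these shares. Among markers of the proximal tubule, 5 of 15 had a promoter peak in both replicates and 7 in replicate 1. GGT1, the brush border gamma-glutamyltransferase, had 9390 shared bases and an FPKM of 64.1 and 58.1. The bicarbonate cotransporter SLC4A4 had 15783 at 12.8 and 14.0, and the scaffold PDZK1 had 6088 at 17.4 and 17.9. SLC34A1, the phosphate cotransporter, had 4527 shared bases with a promoter peak in both replicates at an FPKM of 0.054 and 0.165, and CUBN, the receptor cubilin, had 17434 at 0.033 and 0.042. SLC5A2, a glucose cotransporter, was the fifth with a promoter peak in both. The receptor megalin (LRP2), the anion transporters SLC22A6 and SLC22A8 and the water channel AQP1 had no base in either replicate. Counting any base in the window, 10 of the 15 had some in replicate 1 and 7 in both replicates, against 79.7% and 68.8% of all protein-coding genes.

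Nephron transcription factors were split in the same manner, with 5 of 18 having a promoter peak in both replicates, against 54.5% of all protein-coding genes. PAX8, a paired box factor of kidney lineages, had 50067, 24377 and 24319 bases (replicate 1, replicate 2 and both), 29.3% of its window, at an FPKM of 100.2 and 104.1. LHX1 had 5333 shared bases at 61.9 and 60.1. SIM1 and HNF4G were also among the 5. PAX2 had no promoter H3K27ac and carried H3K27me3 there, and HNF4A and WT1 had no H3K27ac base.

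Genes of tubule injury and dedifferentiation had promoter peaks in both replicates in 12 of 16, against 54.5% of all protein-coding genes. HAVCR1, the injury marker known as KIM-1, had 39530, 18006 and 18006 bases, 28.7% of its window, at an FPKM of 84.3 and 84.7. ANXA2 had 15343 shared bases, the adhesion receptor CD44 8588, the keratin KRT7 6820 and SPP1, which encodes osteopontin, 5467 at an FPKM of 578.3 and 613.1. LCN2 and VCAM1 also had promoter peaks but FPKM under 1. ANXA1 and CLU had promoter peaks only in replicate 1, and PROM1 and SOX9 in neither.

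Lists of growth control, adhesion and matrix were marked at most or all promoters. All 15 YAP and TEAD targets had a promoter peak in both replicates, with a median of 8000 shared bases against 1000 over all genes. CRIM1 had 31372, WWTR1, which encodes TAZ, 30189, the angiomotin gene AMOTL2 16208 over 40.4% of its window, and CCN1 9425 at an FPKM of 814.2 and 790.3. All 18 actin and focal adhesion genes had one, with a median of 9104 shared bases. The calpain CAPN2 had 28542, the actinin ACTN4 23363 and the myosin heavy chain MYH9 21791. TGF-beta and matrix genes reached 16 of 18, with COL4A2 at 38820 and TGFB2 at 23738. The collagen genes COL1A2 and COL3A1 were the exceptions, whereas COL1A1 and COL5A1 had promoter peaks in both replicates, with 5976 and 8424 shared bases.

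AP-1 factors had promoter peaks in 10 of 12 in both replicates, against 54.5% of all protein-coding genes. FOSL2 had 31309, 19374 and 19115 bases, 42.6% of its window, at an FPKM of 55.0 and 56.1. JUNB had 11740 shared, FOSL1 8648 at 25.2 and 23.4, JUN 3715 at 89.8 and 85.1, and FOS 423 at 2.27 and 2.41. BATF, a lymphocyte factor, had no base. Integrins and laminins had promoter peaks in both replicates in 13 of 19 (68.4%) and in replicate 1 in 18 of 19. Over all protein-coding genes these shares were 54.5% and 67.0%. ITGB3 led with 27154 shared bases, 34.0% of its window, before ITGB1 with 18259 and ITGA3 with 17283. ITGB6 had 6950 shared bases with a promoter peak only in replicate 1. For EGF and MET receptors and ligands the count was 7 of 12, or 58.3%, near the share over all genes. MET had 30876 and EGFR 26794 shared bases. The ligand AREG had no shared base at an FPKM of 43.1 and 42.6 and 2980 bases in replicate 1.

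**Figure D5:**
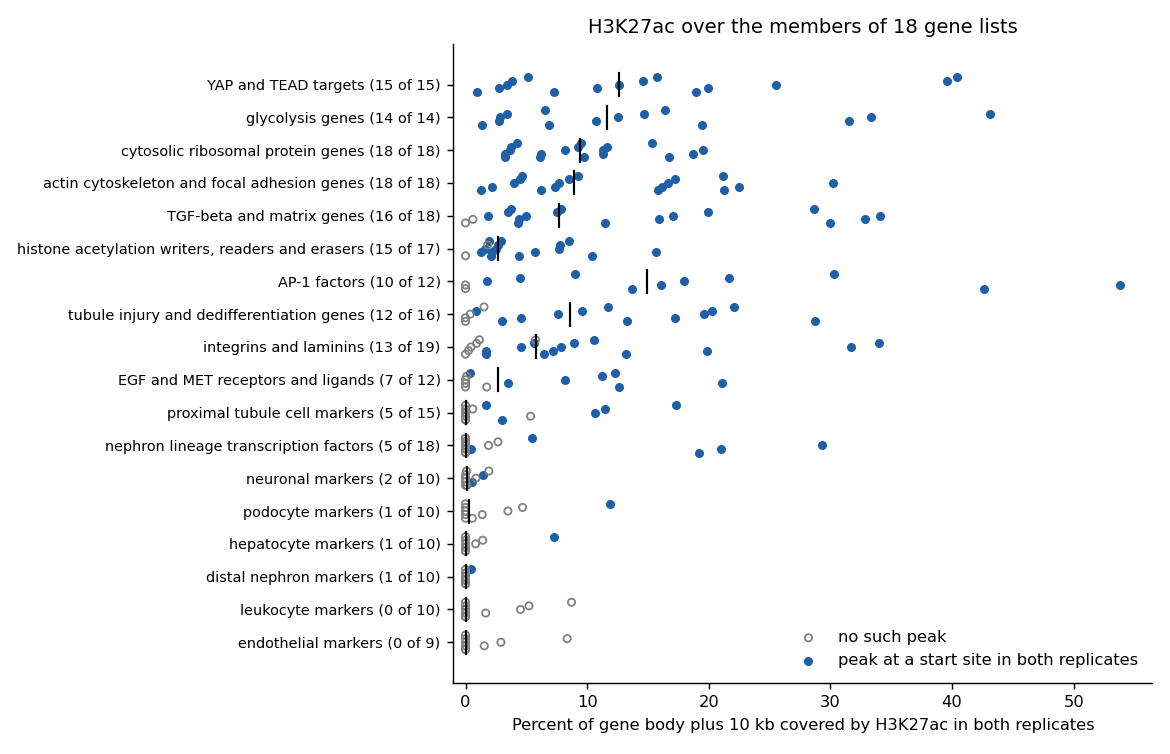
Percent of the gene body plus 10 kb covered by H3K27ac in both replicates for each member of 18 gene lists (points; filled where a peak of both replicates lies within 1 kb of a TSS), with the list median as a bar and the count of filled members in brackets. Medians lie at or near 0 for the 6 lists of other cell types and for proximal tubule markers and nephron factors, and are highest for AP-1 factors and YAP and TEAD targets.

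All 18 ribosomal protein genes and all 14 glycolysis genes had promoter peaks in both replicates, against 54.5% of all protein-coding genes. Their medians were 2310 and 4748 shared bases. GAPDH had 7950 at an FPKM of 5360 and 5362, ENO1 12025 and the hexokinase gene HK2, which only shares its name with the cell line, 5463. The enzymes and readers of histone acetylation had 15 of 17. The bromodomain protein gene BRD2 had 5155 shared bases, HDAC1 3502, CREBBP 2214 and EP300 1697. The acetyltransferase KAT2B and the deacetylase HDAC3 had promoter peaks in replicate 1 alone.

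Markers of other cells had few promoter peaks in both replicates, against 54.5% of all protein-coding genes. Some base in the window was more frequent in most of these lists, as it was over all genes. Promoter peaks in both replicates were found in 1 of 10 podocyte markers (SYNPO, with 9285 shared bases), 1 of 10 distal nephron markers (SLC12A1, 674), 1 of 10 hepatocyte markers (SERPINA1, 2463), 2 of 10 neuronal markers (SYT1 and SNAP25) and in 0 of 10 leukocyte markers and 0 of 9 matched endothelial markers. In replicate 1 alone the counts were 4, 1, 3, 4, 1 and 1. Bases covered in both replicates lay in the windows of 5 of 10 podocyte, 1 of 10 distal nephron, 3 of 10 hepatocyte, 6 of 10 neuronal, 4 of 10 leukocyte and 3 of 9 endothelial markers, and replicate 1 bases in 7, 3, 6, 7, 8 and 5 of them. Over all protein-coding genes, 68.8% had bases covered in both replicates and 79.7% had replicate 1 bases. Among the defining markers, NPHS1, UMOD, AQP2, KDR, CD3E and ALB had no base in either replicate, while the leukocyte marker CD14 had 365 shared bases at a mean FPKM of 0.253 and the neuronal marker SNAP25 had 2302. CDH5, the endothelial cadherin, had 4854 shared bases without a promoter peak at an FPKM of 0 and 0.040.

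Genes the study discusses covered the whole range. ENAH, an actin regulator, had 9160 shared bases, DAB2, an endocytic adaptor of the tubule, 2749 and GLUD1, glutamate dehydrogenase, 3049. On chromosome 1, THBS3 had 5719 shared bases, MTX1 4332 and MUC1, the mucin of tubular kidney disease, 3171, each with promoter peaks in both replicates. WWOX had 976 bases over a window of 1133268 bp, NUDT7 550 in replicate 1 only, and VAT1L and CLEC3A none.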

How the data were processed

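Peak lists of H3K27ac, H3K4me3 and H3K27me3 (2 libraries each) and 2 RNA-seq libraries were used, grouped by the labels. The labels number only the second replicate of each mark, and the other was taken as replicate 1. Per the labels and the study's methods, reads were trimmed by the authors with cutadapt and placed on hg19 by Bowtie2, and MACS2 then called peaks separately for each library. The deposited lists hold only chromosome, start and end, so no stricter peak threshold could be set, and library depth and enrichment, given by the study elsewhere, were not used here. For RNA-seq, the authors aligned reads with HISAT2, and StringTie gave the deposited FPKM and TPM values, which carry no counts. The study's methods name hg19 for this step, whereas the deposited transcripts have GRCh38 coordinates and the file header names a GENCODE annotation of that build. Versions of the other tools are not given in the sources used here, and the file header gives that of StringTie.

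Overlaps, bases per gene window and motif matches were computed in Python 3.11.15 with NumPy 2.4.6, pandas 2.3.3 and SciPy 1.17.1, and plots drawn with Matplotlib 3.10.9. Genes, TSSs and sequences came from GENCODE genes on GRCh37. RNA values, summed over the transcripts of each gene, were joined by Ensembl identifier (19645 of 20162 protein-coding genes), not by coordinates. Interval arithmetic was checked on simulated data and equalled base-by-base masks in 20 of 20 runs. Marks were compared by the exact permutation test over samples. Alternatives changed the replicates used, TSS set and window, flank, gene set, overlap minimum, peak width, joining distance, motif window and RNA unit.

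Named genes were the 20 with most shared bases, the 10 with the highest share of the window, the first of each replicate alone, those with the largest rank differences, the most covered genes at mean FPKM under 1, non-coding genes, the widest segments and clusters, up to 4 members of each list with those lacking or having a promoter peak where few, and genes the study names. Other list members named, and the neighbours of genes at low FPKM, were chosen after their values were seen. Members, rules and lists were chosen with earlier results of these data known. PECAM1 was not matched by symbol. Some named items are not reported here. Input and HiChIP libraries were not used here.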

Additional observations from a re-analysis of the deposited data

Results flagged for a closer look

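Some H3K27ac peaks lay outside chromosomes 1 to 22, X and Y, on contigs that the comparisons did not use. There were 74 of them in replicate 1 and 85 in replicate 2. Replicate 2, which had fewer peaks in all, had more of these. No gene was assigned to them and the cause was not tested.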

How the results depend on the processing

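The lists carry no score, and precision is limited by 2 replicates that differ in extent, and most values moved with the replicate used. Leaving out a replicate gave a median of 1008 to 3056 bases per gene, 10 to 19 of the 20 leading genes, a promoter share of 28.1 to 36.3%, a median width of 657 to 1357 bp, a median FPKM above 20% coverage of 14.4 to 18.5, 2.41 to 15.7% of uncovered genes expressed, AP-1 in 10.0 to 17.4% of distal windows, SP/KLF in 30.1 to 30.9% of promoter windows, H3K4me3 overlap of 24.1 to 33.5%, H3K27me3 overlap of 0.117 to 0.343% and 410 to 2040 large clusters. Leaving out an RNA-seq library gave a median FPKM of 18.1 to 19.6 and 16.2 to 16.5% of uncovered genes expressed. Bases in either replicate gave a median of 3074, 10 of the 20 genes, a median FPKM of 14.4 (14.36 before rounding) and 2.41% expressed (2.406). With no flank the median was 439, with a flank of 25 kb 1512 and over all annotated genes 0, and joining peaks closer than 500 bp gave a median width of 1075 bp. Ranking by share of the window kept 0 of the 20. The promoter share was 43.6% with TSSs of all annotated genes and 26.9% with 1 TSS per gene. Requiring that 50% of a peak be covered gave overlaps of 20.8% and 96.6%, and peaks of at least 500 bp 40.4% and 98.8%. Median FPKM above 20% coverage was 20.7 (20.65) over genes with FPKM of at least 0.1, and the median TPM was 51.5. With 500-bp windows AP-1 was in 17.0% (16.95) of distal and SP/KLF in 42.0% (41.97) of promoter windows, and with 200-bp windows SP/KLF in 22.1%. H3K4me3 replicate 1 alone overlapped 51.1% of segments. Joining over 5 kb gave 231 large clusters and over 25 kb 614. With the replicate block, paired by number, differences in promoter share were -7.21 (exact permutation p = 1.0) and 23.2 points (p = 0.5), with p = 0.5 for both widths, and no call changed. No value changed sign. The cause of these shifts was not tested.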
